A study of Mus musculus with 24 samples.

Results

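The genes described here are 10 feedback regulators of the ERK (extracellular signal-regulated kinase) pathway, namely the MAP kinase phosphatase genes Dusp1, Dusp4, Dusp5, Dusp6 and Dusp14, the Sprouty genes Spry1, Spry2 and Spry4, and the Sprouty-related genes Spred1 and Spred2. They were taken by symbol from the gene column of the deposited tables, and all 10 were found among the 24340 genes that the tables share. Striatal RNA was sequenced from 24 male mice in 4 groups, 5 of WT-vehicle, 6 of R6/1-vehicle, 6 of WT-RGFP109 and 7 of R6/1-RGFP109. R6/1 mice are hemizygous for a transgene with the first exon of the human huntingtin gene and an expanded CAG repeat, and are used as a model of Huntington's disease. The wild type mice were their littermates on the C57BL/6J background. RGFP109, an inhibitor of the histone deacetylases HDAC1 and HDAC3, was injected intraperitoneally at 30 mg/kg, 5 times a week for 3 weeks, from an age of 11 to 14 weeks. The vehicle groups received the same volume of the dimethyl sulfoxide and saline solvent. All mice were killed 18 h after the last injection, at 14 to 17 weeks of age.

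ERK is the last kinase of a relay in which receptors activate Ras, Ras activates Raf kinases, Raf activates MEK and MEK phosphorylates ERK. In striatal projection neurons glutamate and dopamine inputs are known to drive this relay, and active ERK switches on immediate early genes. Several targets of the pathway act back on it. The dual specificity phosphatases (DUSP) remove phosphate from ERK and related kinases, whereas Sprouty and SPRED proteins act further up, on the steps from receptors to Raf.

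The authors' tables give 1 FPKM value (fragments counted on a gene, scaled to transcript length and library size) per group, pooled over its mice, and each group stands in 3 tables. Values of single mice were not used here, so no spread between mice and no test can be given. Every difference below is therefore a description of pooled group values, and the depth of the libraries is unknown. A level is the mean of a group's value over its 3 tables, which differ from each other by a common factor of at most 3.92%. A log2 ratio is the difference of log2(FPKM + 0.05) within the table of the pair. Levels put R6/1 groups slightly higher against wild type groups of the same treatment than these ratios do. For Dusp5 with vehicle the log2 ratio is 0.39 from levels and 0.36 within the pair. The order of groups by level leans the same way. A gene was counted as expressed at a mean of at least 1 FPKM over the 4 groups, which held for 13715 genes and for all 10 regulators, and as higher or lower in a comparison at an absolute log2 ratio above 0.5.
The label striatum was checked against marker genes of its projection neurons. Ppp1r1b, which encodes the dopamine-regulated phosphatase inhibitor DARPP-32, had 1137 FPKM in WT-vehicle, 1030 in WT-RGFP109, 452 in R6/1-vehicle and 403 FPKM in R6/1-RGFP109, and all 8 markers on the list were expressed. The 5 choroid plexus genes had summed levels of 33.95 FPKM in WT-vehicle and 8.90 to 21.4 FPKM in the other groups, and the 5 neocortex genes ranged from 192 to 339 FPKM, so RNA of both was present.

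In WT-vehicle the order of levels was Dusp14 (37.7 FPKM), Spry2 (29.5), Spred1 (23.7), Dusp1 (22.6), Dusp6 (17.6), Spred2 (14.3), Spry1 (3.81), Dusp5 (3.22), Spry4 (2.28) and Dusp4 (2.11 FPKM). FPKM is scaled by transcript length, so these levels can be set beside each other. Among all expressed genes of that group, Dusp14 stood at the 81.3 percentile and Dusp4 at the 11.4 percentile. In R6/1-vehicle Spred1 was the highest of the 10 with 23.0 FPKM, above Dusp14 with 19.2 FPKM and Spry2 with 18.0 FPKM. Without replicate values it cannot be said which neighbours in these orders differ beyond their spread.

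**Figure D1:**
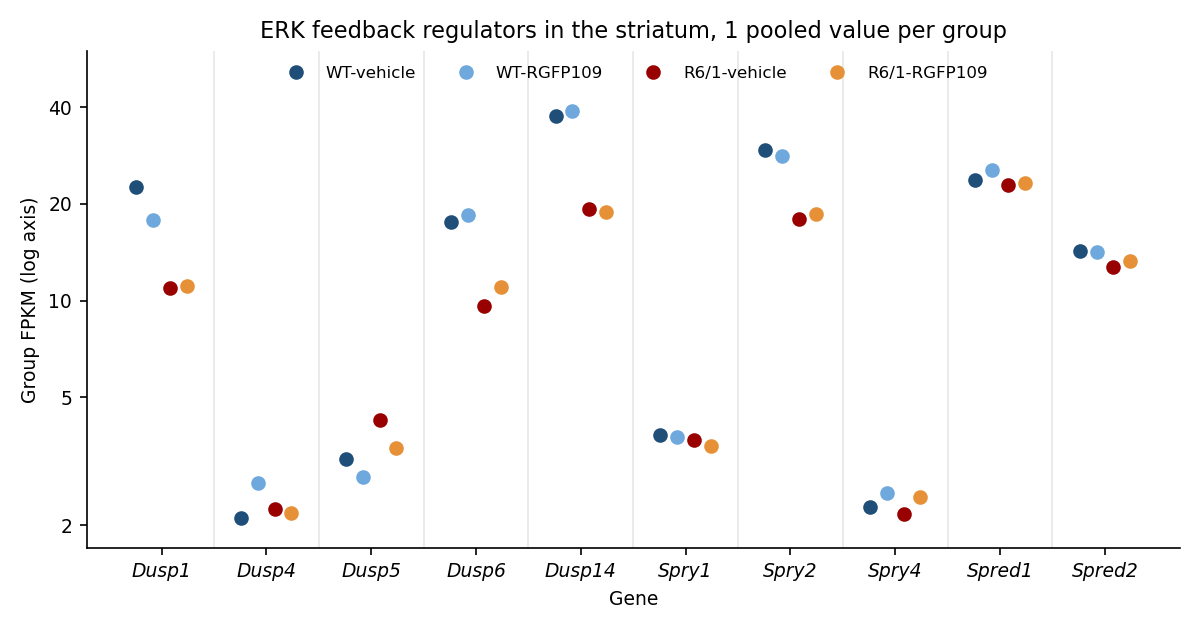
Group FPKM (log axis) of the 10 ERK feedback regulators in WT-vehicle, WT-RGFP109, R6/1-vehicle and R6/1-RGFP109. Each point is 1 value pooled over the mice of a group and averaged over its 3 tables, with no error bar because the tables hold none. Dusp1, Dusp6, Dusp14 and Spry2 lie lower in both R6/1 groups than in both wild type groups, with the lowest wild type value 1.51 to 1.96 times the highest R6/1 value.

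Sequence before the start of 5 of the genes is shown because 4 of them, Dusp1, Dusp6, Dusp14 and Spry2, were lower in R6/1 mice, and the other, Dusp5, was the 1 gene with both R6/1 values above both wild type values, as for 43.5% of expressed genes, without passing the fold between the genotypes under the same treatment. The stretches are 110 bases long, from position -150 to -41 relative to the RefSeq start on GRCm38.p6, printed 5′ to 3′ along the gene. Capitals mark letters of the cAMP response element TGACGTCA, its core TGACG, the AP-1 site TGANTCA and the CArG box bound by serum response factor, on either strand.
Dusp1: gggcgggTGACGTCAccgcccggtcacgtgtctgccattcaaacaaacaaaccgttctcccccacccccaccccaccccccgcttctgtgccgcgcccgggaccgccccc
Dusp5: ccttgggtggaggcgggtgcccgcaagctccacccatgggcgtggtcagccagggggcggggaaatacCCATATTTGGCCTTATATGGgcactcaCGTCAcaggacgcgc
Dusp6: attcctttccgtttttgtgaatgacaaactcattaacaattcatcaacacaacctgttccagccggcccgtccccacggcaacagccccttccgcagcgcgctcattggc
Dusp14: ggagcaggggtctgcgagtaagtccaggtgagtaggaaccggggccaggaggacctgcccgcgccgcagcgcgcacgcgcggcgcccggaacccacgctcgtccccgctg
Spry2: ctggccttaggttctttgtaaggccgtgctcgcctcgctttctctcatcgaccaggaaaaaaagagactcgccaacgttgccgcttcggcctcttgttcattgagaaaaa
They lie at chr17:26508513-26508622 on the minus strand (Dusp1), chr19:53528995-53529104 on the plus strand (Dusp5), chr10:99263081-99263190 on the plus strand (Dusp6), chr11:84068398-84068507 on the minus strand (Dusp14) and chr14:105896860-105896969 on the minus strand (Spry2). The stretch of Dusp5 lies on an exon of AC137853.2, a gene on the opposite strand. Unlike for the other genes shown, the start used for Dusp5 lies upstream of the locus start given below, 53529318. Positions for Dusp5 are relative to the start used and would differ from that locus start. In the stretch of Dusp1 7 bases and in that of Dusp14 27 bases overlap annotated exons of these genes themselves. A promoter window of 300 bases was found for 8 of the 10 genes, and not for Dusp4 and Spry4. The full element TGACGTCA was found in 1 of the 8 windows, that of Dusp1, at -143 to -136. It was found in 1.88% of the 27025 promoters. The core TGACG, which overlaps the full element, was found in the windows of Dusp1, Dusp5 and Spred2 and in 21% of all promoters. In Dusp1 it also stood apart from the full element, at -191 to -187, before the printed stretch. The CArG box was found in the window of Dusp5 alone, as 2 adjacent boxes between -82 and -63, and in 1.57% of all promoters. The AP-1 site (7.93% of all promoters), the ETS site CCGGAAG (9.12%) and the EGR site GCGTGGGCG (0.625%) were found in 0 of the 8 windows. The 4 genes that were lower in R6/1 mice shared none of these letters in their windows, which says nothing about factors that may bind them.

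The first comparison asked how the R6/1 genotype affects the striatum without drug. Of the 10 regulators 4 were lower in R6/1-vehicle than in WT-vehicle, Dusp1, Dusp6, Dusp14 and Spry2, and 0 were higher. Over all expressed genes 10.1% were lower and 3.95% higher by the same fold. The median log2 ratio of the 10 genes was -0.15, against -0.0039 over all expressed genes. Summed over the 10 genes the level was 157 FPKM in WT-vehicle and 106 FPKM in R6/1-vehicle.
Because the group values are pooled from bulk tissue, fewer cells of a type and less RNA per cell cannot be told apart. Of 8 projection neuron markers 7 were lower in R6/1-vehicle, with a median log2 ratio of -1.31 and summed levels of 3158 and 1245 FPKM. The markers of the other cell types measured were lower too, by median log2 ratios of -0.84 for oligodendrocytes (4 of 5 past the fold), -0.69 for neocortex (5 of 5), -0.84 for choroid plexus (4 of 5), -0.35 for astrocytes (0 of 5), -0.28 for microglia (0 of 5), -0.25 for endothelial cells (1 of 4) and -0.20 for oligodendrocyte precursors (0 of 3). Their part in the values of the regulators was not tested.

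Dusp1 (chromosome 17, 26505591 to 26508472 on mm10, minus strand) encodes a nuclear phosphatase of p38, JNK and ERK and is itself an immediate early gene. Its level was 22.6 FPKM in WT-vehicle, 17.8 in WT-RGFP109, 10.9 in R6/1-vehicle and 11.1 FPKM in R6/1-RGFP109. Both R6/1 groups lay below both wild type groups, and the wild type groups also lay apart from each other. The log2 ratio was -1.08 for R6/1-vehicle over WT-vehicle, and 2.61% of expressed genes were as low. For R6/1-RGFP109 over WT-RGFP109 it was -0.71, with 4.91% of expressed genes as low.
Dusp6 (chromosome 10, 99263231 to 99267489, plus strand) encodes the cytoplasmic phosphatase that is specific for ERK. It had 17.6 FPKM in WT-vehicle, 18.5 in WT-RGFP109, 9.63 in R6/1-vehicle and 11.1 FPKM in R6/1-RGFP109. The log2 ratio between the genotypes was -0.90 with vehicle and -0.78 with RGFP109, and 3.77% and 4.24% of expressed genes were as low.
Dusp14 (chromosome 11, 84048045 to 84068357, minus strand) encodes a small phosphatase without the kinase-binding domain of the classical family. Its level was 37.7 FPKM in WT-vehicle and 39.0 in WT-RGFP109, against 19.2 in R6/1-vehicle and 18.9 FPKM in R6/1-RGFP109. The log2 ratio was -1.001 with vehicle and -1.07 with RGFP109. The lowest wild type value was 1.96 times the highest R6/1 value, the largest such ratio of the 10 genes.
Dusp4 and Dusp5 encode nuclear phosphatases that, like Dusp6, act on ERK, and had much lower levels. Dusp4 (chromosome 8, 34807610 to 34819894, plus strand) had 2.11 FPKM in WT-vehicle, 2.71 in WT-RGFP109, 2.24 in R6/1-vehicle and 2.19 FPKM in R6/1-RGFP109. Its R6/1 values lay between the wild type values, and its log2 ratio between the genotypes was 0.052 with vehicle and -0.34 with RGFP109. Dusp5 (chromosome 19, 53529318 to 53541322, plus strand) had 3.22 FPKM in WT-vehicle, 2.82 in WT-RGFP109, 4.24 in R6/1-vehicle and 3.49 FPKM in R6/1-RGFP109. Both R6/1 groups lay above both wild type groups, as for 43.5% of expressed genes, and its log2 ratio was 0.36 with vehicle and 0.27 with RGFP109, short of the fold used. Exons of a gene on the opposite strand overlap the loci of Dusp5 (AC137853.2), Spry1 (Gm42922) and Spry4 (Gm27369 and Gm27804), and the counting is not stated to use strand, so the values of these 3 genes may include reads of their antisense neighbours.

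The Sprouty genes differed among themselves. Spry2 (chromosome 14, 105891947 to 105896819, minus strand), an inhibitor of receptor signalling to Ras and Raf, had 29.5 FPKM in WT-vehicle, 28.1 in WT-RGFP109, 18.0 in R6/1-vehicle and 18.6 FPKM in R6/1-RGFP109. Its log2 ratio between the genotypes was -0.75 with vehicle and -0.63 with RGFP109, and 5.38% and 5.95% of expressed genes were as low. Spry1 (chromosome 3, 37639947 to 37644599, plus strand), from the same family, had 3.81 FPKM in WT-vehicle, 3.76 in WT-RGFP109, 3.69 in R6/1-vehicle and 3.52 FPKM in R6/1-RGFP109, a log2 ratio of -0.080 with vehicle. Spry4 (chromosome 18, 38586265 to 38601268, minus strand) had 2.28, 2.51, 2.17 and 2.45 FPKM in the same order of groups. Its genotype ratio was -0.10 with vehicle and -0.072 with RGFP109, and the values of the genotypes overlapped.
The SPRED proteins hold Ras back by bringing neurofibromin to the membrane. Spred1 (chromosome 2, 117121071 to 117182277, plus strand) had 23.7 FPKM in WT-vehicle, 25.5 in WT-RGFP109, 23.0 in R6/1-vehicle and 23.3 FPKM in R6/1-RGFP109. Spred2 (chromosome 11, 19924442 to 20022597, plus strand) had 14.3, 14.2, 12.7 and 13.3 FPKM. Their log2 ratios with vehicle were -0.078 for Spred1 and -0.20 for Spred2, and 39.4% and 26.0% of expressed genes were as low. From levels summed over both genes, without the added 0.05 FPKM, the log2 ratio with vehicle was -0.091. For the summed levels of the 5 phosphatase genes it was -0.85, and for those of the 3 Sprouty genes -0.58. These ratios of levels carry the shift between levels and ratios within a pair.

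The second comparison asked whether the genotypes differ in the same way in mice that received RGFP109, and shares no mouse with the first. The 4 genes that were lower in R6/1-vehicle were also the 4 lower in R6/1-RGFP109 than in WT-RGFP109, and 0 were higher. Over all expressed genes 8.68% were lower and 3.51% higher. The median log2 ratio of the 10 genes was -0.25, against 0.0097 over all expressed genes. The sign was the same in both comparisons for 9 of the 10 genes, the exception being Dusp4, and for 81.9% of expressed genes. Across the 10 genes the log2 ratios of the comparisons had Pearson's r of 0.931 and Spearman's rho of 0.758, where rho was 0.767 across all expressed genes. These correlations describe genes measured in the same libraries, not replicates. By levels both R6/1 groups lay below both wild type groups for 7 of the 10 genes and for 32.3% of expressed genes. This order carries the shift of the levels described above. For Spry1, Spred1 and Spred2, which are among the 7, the lowest wild type value was only 1.02 to 1.07 times the highest R6/1 value.

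**Figure D2:**
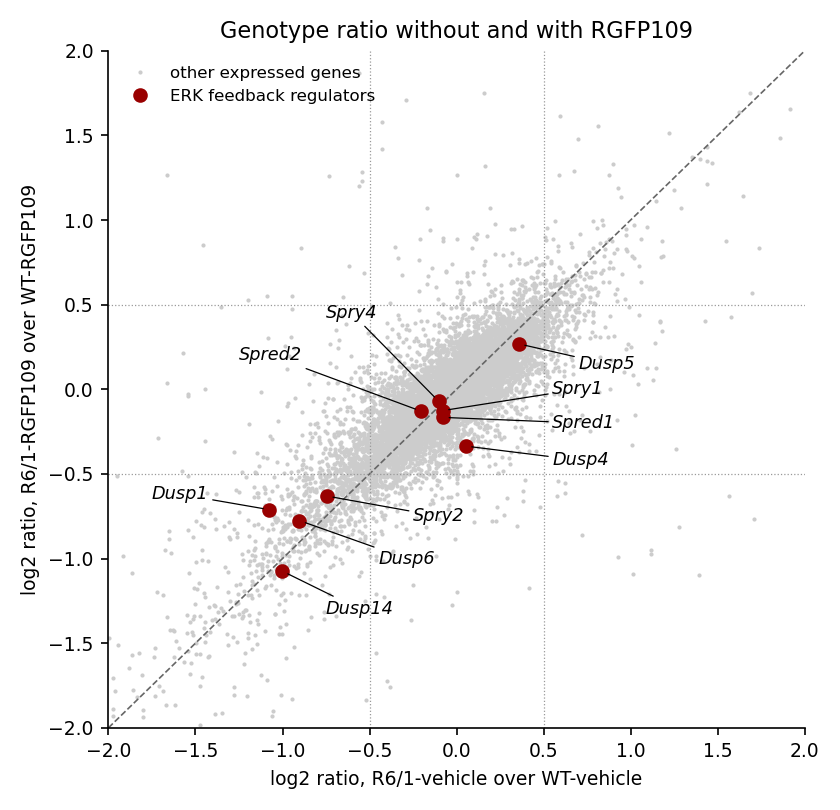
Log2 ratio of group FPKM for R6/1-vehicle over WT-vehicle (horizontal) and for R6/1-RGFP109 over WT-RGFP109 (vertical), with the 10 regulators in red and the other expressed genes in grey. The dashed line marks equal ratios and the dotted lines the fold of 0.5, and 340 expressed genes beyond a ratio of 2 on either axis are not drawn. Dusp1, Dusp6, Dusp14 and Spry2 lie past -0.5 on both axes.

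The difference between the genotype ratios, with RGFP109 minus with vehicle, was small for most of the 10 genes and could not be tested. It was 0.36 for Dusp1 and -0.39 for Dusp4, and between -0.089 and 0.13 for the other 8. The middle 95% of expressed genes, microRNA and small nucleolar RNA genes included, lay between -0.49 and 0.58. For Dusp1 and Dusp4 the R6/1 groups lay close together and the wild type groups lay apart. Over the same difference the 5 oligodendrocyte genes lay between 0.43 and 0.60 and the 5 neocortex genes between 0.42 and 1.046. Whether this bears on Dusp1 was not tested.

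In R6/1 mice, 0 of the 10 genes passed the fold between R6/1-RGFP109 and R6/1-vehicle, where 1.53% of expressed genes were higher and 1.5% lower. Without small RNA genes these shares were 0.438% and 0.62%. The log2 ratio was 0.20 for Dusp6 and 0.16 for Spry4, at or above which lay 4.78% and 6.20% of expressed genes. Dusp5 had the lowest ratio, -0.28, with 3.05% of expressed genes as low. The other 7 genes lay between -0.068 and 0.056, namely Dusp1 at 0.018, Dusp4 at -0.037, Dusp14 at -0.026, Spry1 at -0.068, Spry2 at 0.045, Spred1 at 0.014 and Spred2 at 0.056. All 10 values fell within the middle 95% of expressed genes, from -0.33 to 0.31. That range includes the small RNA genes, which widen it. Of 206 expressed genes lower by the fold, 82 were left without them. The range is not given here without small RNA genes, so Dusp5 may lie outside such a range.
In wild type mice, likewise, 0 of the 10 genes passed the fold between WT-RGFP109 and WT-vehicle, where 1.7% of expressed genes were higher and 2.11% lower, or 0.597% and 1.14% without small RNA genes. Dusp1 had the lowest ratio, -0.34, with 3.71% of expressed genes as low, and Dusp4 the highest, 0.35, with 2.44% of expressed genes as high. The other 8 lay between -0.19 for Dusp5 and 0.13 for Spry4. The sign was the same in both genotypes for Dusp5, Dusp6, Spry1, Spry4 and Spred1, and opposite for Dusp1, Dusp4, Dusp14, Spry2 and Spred2. In these pairs the choroid plexus genes were the markers furthest apart, with median log2 ratios of -1.89 in R6/1 and -1.70 in wild type mice. The neocortex genes had 0.50 and -0.12 and the oligodendrocyte genes 0.18 and -0.39. Their part in the values of the 10 genes was not tested.

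**Figure D3:**
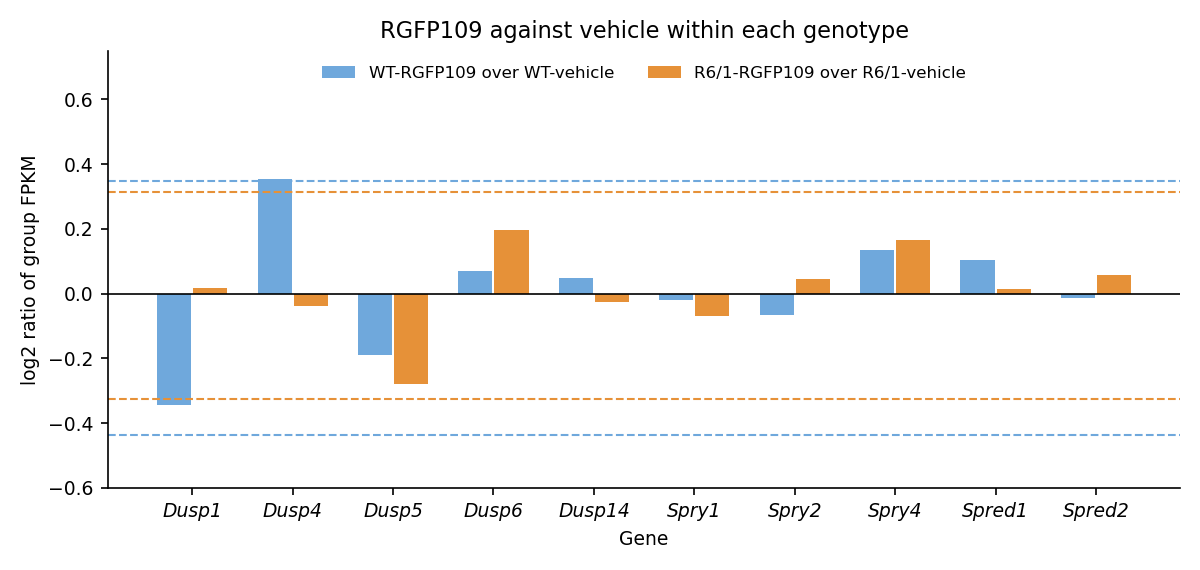
Log2 ratio of group FPKM for RGFP109 over vehicle in wild type mice (blue bars) and in R6/1 mice (orange bars), for each of the 10 regulators. The dashed lines in each colour enclose the middle 95% of expressed genes, small RNA genes included. The bar of Dusp4 in wild type mice, at 0.35, ends just above that range.

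Set against WT-vehicle, R6/1-RGFP109 mice had the same 4 genes lower, where 10% of expressed genes were lower and 3.89% higher. This comparison shares WT-vehicle with the first. Its log2 ratios were -1.05 for Dusp1, -0.70 for Dusp6, -1.03 for Dusp14 and -0.70 for Spry2, beside -1.08, -0.90, -1.001 and -0.75 for R6/1-vehicle. Dusp5 had 0.079, beside 0.36. The remaining pair, R6/1-vehicle against WT-RGFP109, again had these 4 genes lower, with ratios from -1.05 to -0.68, and Dusp5 higher at 0.55, where 8.73% of expressed genes were lower and 3.62% higher. With 1 FPKM added in place of 0.05 the ratio of Dusp5 was 0.43.

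The rest of the pathway was described from 7 lists of 83 genes in all, of which 78 were expressed. In R6/1-vehicle against WT-vehicle 19 of the 78 (24.4%) were lower and 1 was higher. Over all expressed genes 10.1% were lower and 3.95% higher, and these shares apply to each list below. Of the 19 lower genes, 10 came from the list of 15 expressed ERK-responsive genes. Spry3 was listed at 0 FPKM in all groups.
Most genes of the cascade that the 10 regulators act on did not pass the fold. Of 23 genes of the core cascade, 1 was lower, Hras (log2 ratio -0.77), which encodes a Ras GTPase, and 1 was higher, Sos1 (0.52), which encodes an exchange factor that loads Ras with GTP. Map2k1, the MEK1 gene, had 168 FPKM in WT-vehicle and R6/1-vehicle alike, with a log2 ratio of -0.038. The median log2 ratio of the list was -0.073.
Of 13 genes of Ras exchange factors and GTPase activators, 2 were lower in R6/1-vehicle. Rasgrp2, an exchange factor gated by calcium, had 94.8 FPKM in WT-vehicle and 34.3 FPKM in R6/1-vehicle (-1.50). Rasal1, a GTPase activator, had a log2 ratio of -0.51, only just past the fold. With levels in place of the values of the pair, 18 of the 78 pathway genes were lower, in place of 19. Rasgrp1 (-0.30) and Rasgrf1 (0.24), the most abundant of the others, did not pass the fold. Rasgrf2, named after its values were seen, was the 1 of 78 pathway genes higher in WT-RGFP109 than in WT-vehicle, with 22.6 and 15.5 FPKM. Over all expressed genes 1.7% were higher in that pair, or 0.597% without small RNA genes.
Of the 8 other MAP kinase phosphatase genes that were expressed, 3 were lower in R6/1-vehicle. Ptpn7 had 2.71 FPKM in WT-vehicle and 0.344 FPKM in R6/1-vehicle (-2.84). It passed the expression minimum only through its wild type values, so the filter favoured its low ratio. Ptpn5, the striatum-enriched phosphatase STEP, had 212 and 142 FPKM (-0.61), and Dusp7, a close relative of Dusp6, had 20.95 and 13.6 FPKM (-0.66). Dusp3 and Dusp8 had ratios of -0.19 and -0.11. None of the 4 expressed genes in the list of other inhibitors passed the fold, with -0.0080 for Pebp1 (Raf kinase inhibitor protein) and -0.16 for Spred3.

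Downstream of ERK, 1 of 7 kinase genes was lower, Rps6ka4, which encodes the nuclear kinase MSK2 (-0.88). Mknk1 had 0.088 and Mknk2 -0.33. Of 8 transcription factor genes 2 were lower, the PEA3 family members Etv5 (-0.66) and Etv4 (-0.60), while Elk1 had 0.084 and Srf -0.41.
Of the 15 expressed ERK-responsive genes, 10 were lower in R6/1-vehicle and 0 higher, with a median log2 ratio of -0.78, where 10.1% of all expressed genes were lower. The projection neuron markers had a median of -1.31 in the same pair, and their part was not tested. The lowest log2 ratios were those of Egr2 (-2.80), Npas4 (-1.65), Arc (-1.49), Ier2 (-1.10), Nr4a1 (-1.04) and Junb (-1.03), all immediate early genes. Egr2 had 0.607 FPKM in R6/1-vehicle and 0.629 FPKM in R6/1-RGFP109. It passed the expression minimum only through its wild type values, so the filter favoured its low ratio. Egr1, the most abundant, had 91.6 FPKM in WT-vehicle and 51.4 FPKM in R6/1-vehicle (-0.87), whereas Epha4 had a log2 ratio of 0.010. With RGFP109, 9 of the 15 were lower in R6/1 mice, with a median of -0.68, where 8.68% of all expressed genes were lower and the projection neuron markers had a median of -1.36. Between WT-RGFP109 and WT-vehicle 1 of the 15 passed the fold, Npas4 (-0.66), where 2.11% of all expressed genes were lower. The median of the 15 in that pair was -0.26, against -0.0018 over all expressed genes, and 11 were below 0 and 4 above. Dusp1 had -0.34 in the same pair, and a link to these genes was not tested. In R6/1 mice 0 of the 15 passed the fold, and their median was 0.023, against 0.0028 over all expressed genes.

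**Figure D4:**
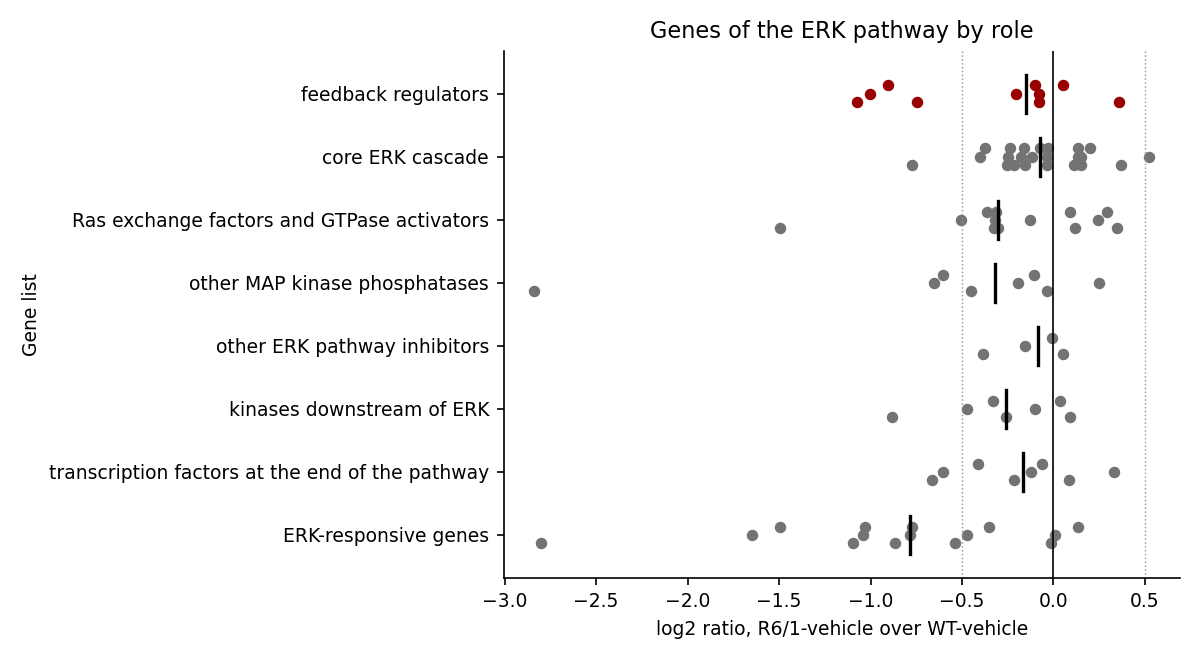
Log2 ratio of group FPKM for R6/1-vehicle over WT-vehicle, with 1 point per expressed gene, for the 10 feedback regulators (red) and the 7 lists of other ERK pathway genes (grey). Black bars are medians and dotted lines mark the fold of 0.5. The median is -0.15 for the feedback regulators, -0.073 for the core cascade and -0.78 for ERK-responsive genes.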

How the data were processed

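RNA from the striatum was sequenced as single-end reads. The authors aligned the reads to RefSeq transcripts of mm10 with STAR 2.5.0b and deposited FPKM values from Cufflinks 2.2.1, pooled per group by Cuffdiff into 6 tables, 1 per pair of groups. The authors' columns of log2 fold changes, test statistics, p-values and q-values were not used. Starts were raised by 1 to count from 1. The 10 genes and all gene lists were chosen with earlier results of these data known. Named from each pathway list were the genes past the fold in R6/1-vehicle against WT-vehicle, at most 6, and up to 2 others of highest mean FPKM, except 1 that is not reported here. No test was run, because the tables hold 1 value per group. Log2 ratios used a pseudocount of 0.05 FPKM, and the counting was checked on simulated data with a seed of 1. Promoter windows (250 bases before to 50 after the start) came from RefSeq on GRCm38.p6, and overlapping genes from GENCODE M21. Tables were handled with pandas 2.3.3 and numpy 2.4.6 under Python 3.11.15, rank correlations with scipy 1.17.1, and plots with matplotlib 3.10.9. Each group was split over both sequencing pools, and values within a pool were not analysed here.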

Additional observations from a re-analysis of the deposited data

How the results depend on the processing

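No paired analysis was possible because each group has 1 pooled value, and for the same reason no mouse could be left out. The counts of regulators past the fold moved by over 1.5 times only under another fold. At an absolute log2 ratio above 1 they were 2 for R6/1-vehicle against WT-vehicle, 1 for R6/1-RGFP109 against WT-RGFP109, 2 for R6/1-RGFP109 against WT-vehicle and 1 for R6/1-vehicle against WT-RGFP109. Above 0.3 there were 2 in wild type mice with RGFP109, Dusp1 and Dusp4, 2 for the difference between the genotype ratios, 5 for R6/1-vehicle against WT-vehicle, 5 for R6/1-RGFP109 against WT-RGFP109 and 6 for R6/1-vehicle against WT-RGFP109. Of the pathway genes 8 were past a ratio of 1 and 37 past 0.3, against 20, and 16 passed 0.5 with 1 FPKM added. The shares of all expressed genes past 0.3 and past 1 are not given here. The counts at those folds therefore cannot be set against a background. Of the log2 ratios of the 10 regulators under another pseudocount, source or centring, 279 stayed on their side of the fold and 1 did not, that of Dusp5 for R6/1-vehicle against WT-RGFP109 with 1 FPKM added (0.43), which left 4 regulators past the fold there in place of 5. Leaving out 486 microRNA and small nucleolar RNA genes, an alternative added once the values were known, changed the background to 9.35% lower for R6/1-vehicle against WT-vehicle. For RGFP109 it became 0.438% higher and 0.62% lower in R6/1 mice, and 0.597% and 1.14% in wild type mice.
The spread between mice and the depth set the limits here, and neither is known from these values.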
